A study of Rattus norvegicus with 24 samples.

Results

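The enzymes described here are those of phase I and phase II drug metabolism in the kidney: cytochromes P450 of families Cyp1 to Cyp3, flavin monooxygenases (Fmo) and carboxylesterases (Ces) of phase I, and UDP-glucuronosyltransferases (Ugt), sulfotransferases (Sult) and cytosolic glutathione S-transferases (Gst) of phase II. They were chosen by gene symbol alone, from probe sets annotated with a single symbol of these families, without Cyp2c23 and the Cyp2j genes. This gave 71 probe sets for 67 genes, of 15866 probe sets other than array controls. The rule used no measured value. A further 7 probe sets of these families carry several symbols and were not used, since near-identical paralogs share their sequence, and the signals of the remaining members may also include close relatives.

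Kidneys came from male rats of the inbred stroke-prone spontaneously hypertensive strain (SHR-SP), whose genetic hypertension is carried by every animal in the study. From 11 weeks of age, 6 animals received a high salt and fat diet (HSF, chow with 24.5% fat, and 1% NaCl in the drinking water) for 2 weeks, and 6 received normal powdered chow and water for 2 weeks. The same diets were given for 8 weeks to 6 and 6 further animals. Salt and fat came together, so that their effects cannot be told apart, and no normotensive strain is among the groups. Whole-kidney RNA was hybridised to Affymetrix rat arrays, 1 array per kidney.

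Phase I enzymes add or uncover a reactive group on lipophilic compounds, by oxidation or hydrolysis. Phase II enzymes then attach glucuronic acid, sulfate or glutathione, which makes the product easier to excrete. In the kidney most of these enzymes sit in the proximal tubule, where they also act on steroids, lipids and products of lipid peroxidation. Many are far more abundant in liver, and several families differ between male and female rats.

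Signals are MAS5 values on a linear scale. Changes are differences of group means of log2(signal + 7.21), given ± SE as HSF minus the normal diet, a scale that understates the change of dim probe sets. Probe sets above the 40th percentile of their array in at least 6 of 24 arrays were tested, and those with a Benjamini-Hochberg adjusted p under 0.05 in limma, over 10208 probe sets, are called. Whole kidneys mix many cell types, so that fewer cells of a type and less RNA per cell cannot be told apart. Median signals of the arrays lay between 68.7 and 78.8. Normal-diet arrays 1 and 2 at 8 weeks differed from the rest at the dim end. Their 1st percentile signals were 2.4 and 3.0, against 0.7 to 1.2 elsewhere. The 8-week diet changes of Ces1d, Gsta3, Gstm1 and Sult2b1 are given with and without them. Changes in the interaction and with time are given only with them.

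Of the 71 probe sets, 34 (33 genes) passed the filter and were tested, or 47.9% against 67.7% of all probe sets with a single symbol. The other 37 had mean signals of 1.11 to 29.4 over all arrays. All 4 Cyp3 probe sets were among them, as were Cyp1a1 and Cyp1a2, the P450s best known for induction through the aryl hydrocarbon receptor. So were 14 of 21 Cyp2, 8 of 14 Sult and 7 of 9 Ugt probe sets. The Gst families contrasted with these, with 14 of 15 probe sets tested. At the filter's edge, Cyp2b3 was above the percentile in 3 arrays and was left out. Ugt8 and Gstm4, above it in 11, and Cyp1b1 and Gstm7, above it in 13, were kept.

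After 2 weeks, 9 of the 34 were called, 3 higher and 6 lower on HSF, against 8.74% of all probe sets tested (4.55% higher and 4.19% lower). After 8 weeks, 6 were called, 3 higher and 3 lower, against 9.14% of all (5.63% higher and 3.51% lower). The called phase I enzymes were Ces1d, Cyp2e1 and Fmo1, lower at both times, and 0 of the 12 phase I probe sets tested was called higher. Of 22 phase II probe sets tested, 3 were called higher and 3 lower at 2 weeks, and 3 higher and 0 lower at 8 weeks. Gsta3 and Gstp1 were called higher at both times. The median change of the 34 was -0.05 at 2 weeks and -0.05 at 8 weeks, against 0.02 and -0.00 over all probe sets tested. The sign of the change was the same at both times for 23 of the 34 (67.6%), against 65.0% of all probe sets tested, and the 2 diet comparisons share no array.

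**Figure D1:**
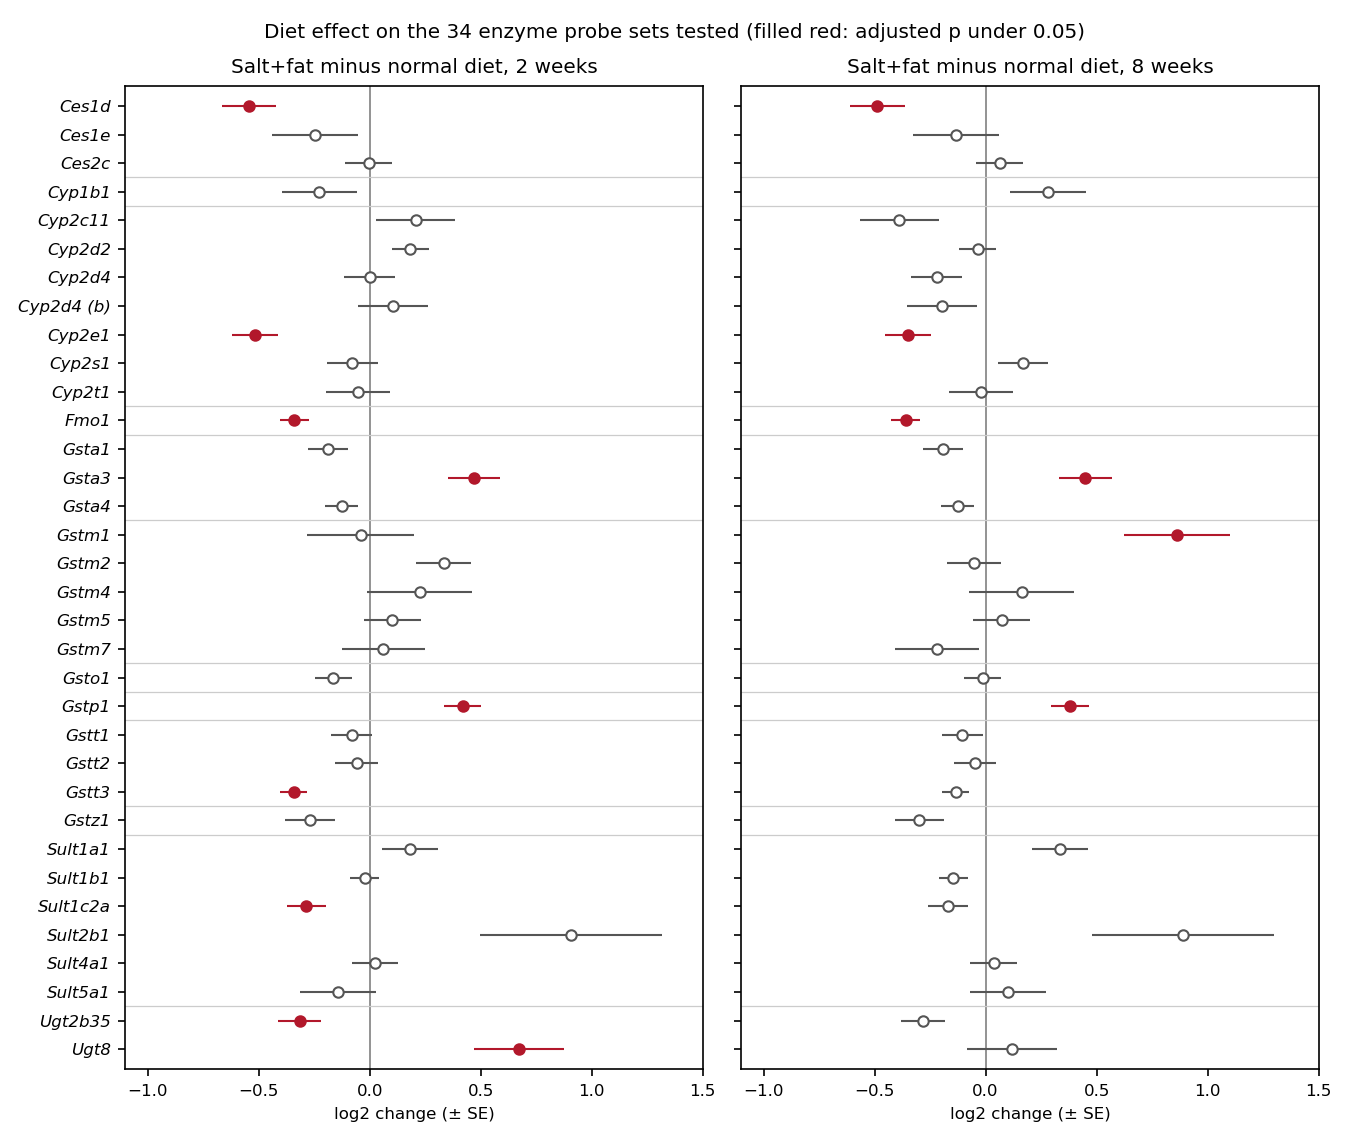
Change in log2(signal + 7.21) of the 34 enzyme probe sets tested, HSF minus normal diet, at 2 weeks (left) and 8 weeks (right), with bars of ± SE and filled red points for adjusted p under 0.05. Fmo1, Ces1d and Cyp2e1 lie left of 0 in both panels, from -0.54 to -0.34, and Gsta3 and Gstp1 lie right of 0 in both, from 0.38 to 0.47.

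Fmo1, the main flavin monooxygenase of rat kidney, which oxygenates nitrogen and sulfur atoms of drugs, separated the diets at both times. At 2 weeks its signals had a lowest, median and highest value of 1232.5, 1401.9 and 1441.4 on HSF, and of 1620.5, 1713.4 and 1873.8 on the normal diet. At 8 weeks they were 1116, 1301.1 and 1472.6 on HSF, and 1502.8, 1657.0 and 1723.6 on the normal diet. The groups did not overlap at either time, and Fmo1 was the 1 of the 34 for which this held at 8 weeks, where 3.35% of all probe sets tested had groups that did not overlap. The change was -0.34 ± 0.07 at 2 weeks (adjusted p = 0.00158) and -0.36 ± 0.07 at 8 weeks (adjusted p = 0.000795).

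Cyp2e1, which oxidises ethanol, acetone and small solvents and is known to rise in liver in fasting and diabetes, fell at both times. Its signals in the 2-week kidneys were 1652.3, 1686.8, 1610.1, 1906.1, 1424.7 and 1824.5 on HSF, against 2709.7, 2478.6, 2666.2, 2210.3, 2279.8 and 2119.2 on the normal diet. Every HSF kidney lay below every normal-diet kidney. At 8 weeks the lowest, median and highest signals were 1376.9, 1720.1 and 1974.1 on HSF, and 1745.5, 2113.8 and 2808.4 on the normal diet, with some overlap. The change was -0.52 ± 0.10 at 2 weeks (adjusted p = 0.00190) and -0.35 ± 0.10 at 8 weeks (adjusted p = 0.0305). At 8 weeks the call was lost in 6 of the 24 fits that left out 1 kidney, HSF kidneys 1, 4 and 5 and normal-diet kidneys 1, 4 and 6 (adjusted p = 0.0518 to 0.0941).

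Ces1d, a carboxylesterase that also hydrolyses triacylglycerol and is abundant in liver and fat tissue, was the third phase I enzyme to fall. Its 2-week signals were 156, 154.1, 156.5, 181.8, 169.7 and 145 on HSF, against 278.8, 265.6, 273.3, 227.5, 195.2 and 194.8 on the normal diet. The groups did not overlap, and normal-diet kidneys 1 to 3 were the highest. At 8 weeks the signals were 116.7, 143.1, 163.7, 119.2, 110.2 and 139.3 on HSF, against 281.9, 205.7, 161.6, 161.8, 164 and 167.9 on the normal diet. Normal-diet kidneys 1 and 2 stood above the rest there, and 1 HSF kidney reached into the range of the other normal-diet kidneys. The change was -0.54 ± 0.12 at 2 weeks (adjusted p = 0.00530) and -0.49 ± 0.12 at 8 weeks (adjusted p = 0.0123), and -0.31 at 8 weeks without normal-diet arrays 1 and 2 (adjusted p = 0.107). The 8-week call was also lost with the level of the spike-in controls as a covariate (-0.38, adjusted p = 0.113). That level, a mean of centred log2 signals, averaged -0.13 ± 0.20 on HSF and 0.17 ± 0.06 on the normal diet at 2 weeks. At 8 weeks it averaged 0.10 ± 0.06 on HSF and -0.13 ± 0.24 on the normal diet (SD, n = 6 each). Normal-diet arrays 1 and 2 were at -0.44 and -0.31 there, and arrays 3 to 6 at -0.11, -0.09, 0.26 and -0.10. For the 8-week calls this covariate is therefore not a separate check from leaving out arrays 1 and 2.

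Transcripts of fat cells were called lower on HSF at 2 weeks, as Ces1d was, and were not called at 8 weeks. A fat index was formed from the standardised log2 signals of Car3, Cfd and Fabp4, as their mean. It ran from -1.24 to -0.39 in the 2-week HSF kidneys, against -0.53 to 1.92 in the 2-week normal-diet kidneys. Normal-diet kidneys 1 to 3, with the highest Ces1d, had indices of 1.11, 1.82 and 1.92. At 8 weeks the index averaged 0.08 ± 0.22 on HSF and -0.15 ± 1.23 on the normal diet (SD, n = 6 each), while Ces1d was lower on HSF. Normal-diet kidneys 1 to 6 had indices of 1.85, -0.24, -0.85, 0.56, -0.53 and -1.71 there. Their Ces1d signals were 281.9, 205.7, 161.6, 161.8, 164 and 167.9, in the same order. With the index as a covariate, the change of Ces1d was -0.24 at 2 weeks (adjusted p = 0.386) and -0.53 at 8 weeks (adjusted p = 0.00148). Under the same covariate Cyp2e1 was at -0.48 (adjusted p = 0.0551) and Fmo1 at -0.31 (adjusted p = 0.0552) at 2 weeks, neither called, with changes close to those without it. The part of fat tissue in these changes was not tested.

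**Figure D2:**
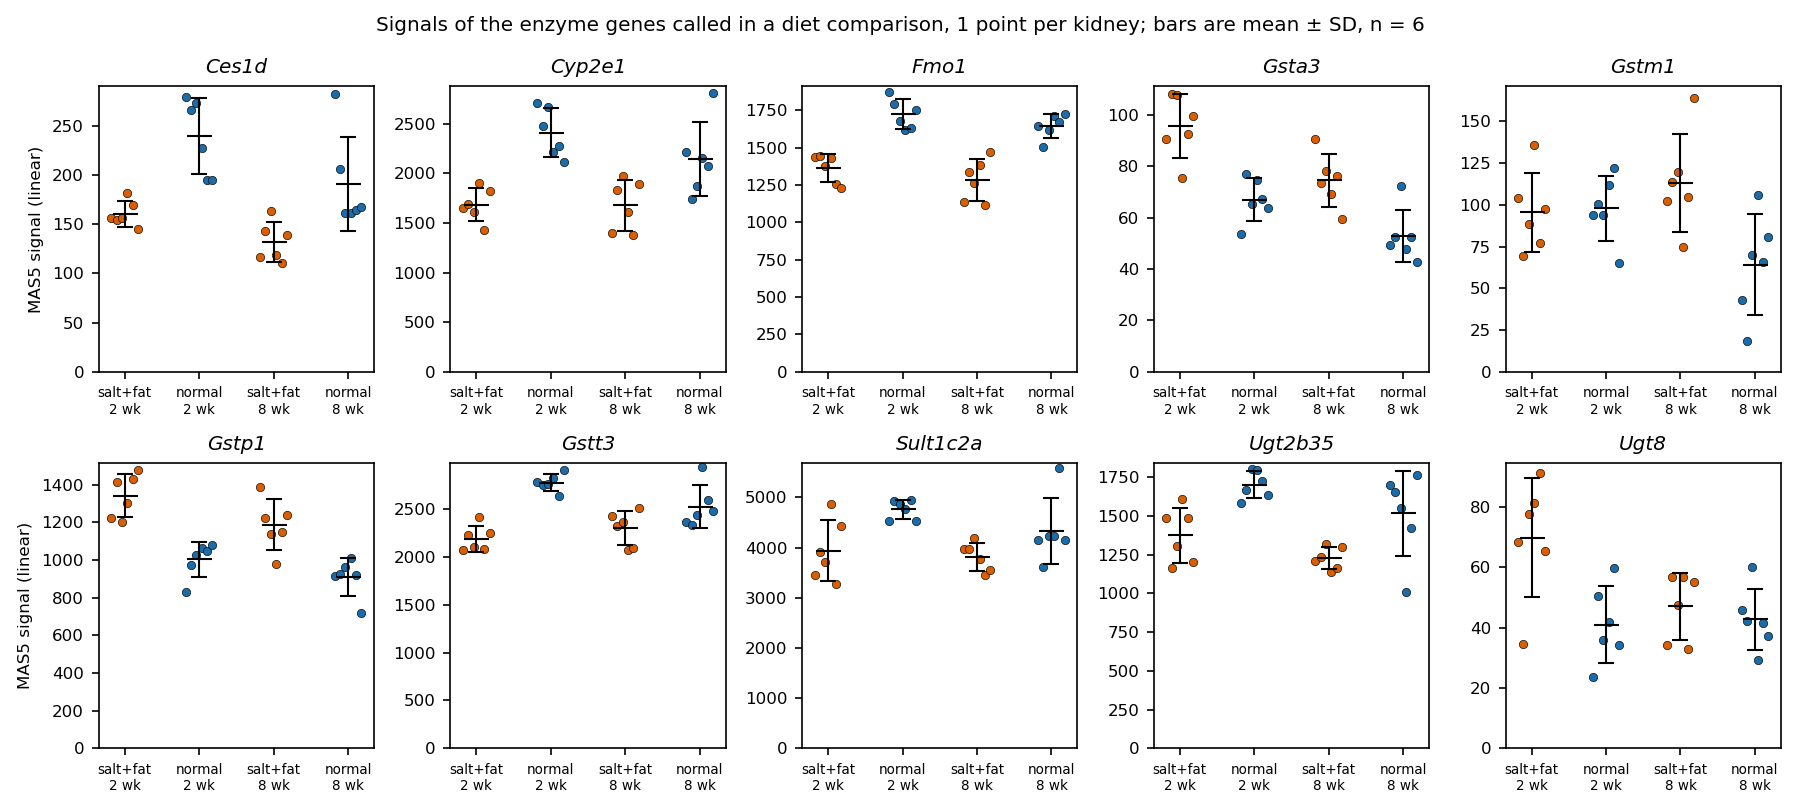
MAS5 signal (linear) of the 10 enzyme genes called in a diet comparison, with 1 point per kidney for the HSF (orange) and normal (blue) diets at 2 and 8 weeks, and bars of mean ± SD, n = 6. Fmo1 separates the diets at both times, while Gstm1 separates mainly through low normal-diet kidneys at 8 weeks and Ugt8 through high signals on HSF at 2 weeks.

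The other P450s and carboxylesterases that were tested did not pass the threshold. Cyp2d2, of the subfamily that holds the human debrisoquine hydroxylase, had lowest, median and highest signals of 515.7, 556.8 and 609.2 on HSF at 2 weeks, and 469.2, 490.9 and 515.4 on the normal diet. The groups did not overlap, yet the change of 0.18 ± 0.08 had an adjusted p of 0.187, and it was -0.04 ± 0.08 at 8 weeks (adjusted p = 0.846). Groups did not overlap at 2 weeks for 6 of the 34 (Ces1d, Cyp2e1, Fmo1, Gstt3, Gstp1 and Cyp2d2), against 4.85% of all probe sets tested.

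Cyp1b1, a P450 of tissues outside the liver that oxidises steroids and polycyclic hydrocarbons, was at -0.23 ± 0.17 at 2 weeks (adjusted p = 0.457) and 0.28 ± 0.17 at 8 weeks (adjusted p = 0.331). Its mean signals at 2 weeks were 40.8 ± 12.7 on HSF and 47.9 ± 7.84 on the normal diet (SD, n = 6 each). At 8 weeks they were 61.2 ± 15.2 on HSF and 48.2 ± 7.23 on the normal diet. Ces2c, an esterase that prefers substrates with a large alcohol group, differed by less than its SE at both times (0.00 and 0.06). Cyp2c11, the main male-specific P450 of rat liver, had signals from 256.8 to 821.1 over the 24 kidneys, with changes of 0.21 ± 0.18 at 2 weeks and -0.39 ± 0.18 at 8 weeks (adjusted p = 0.525 and 0.180).

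Among the glutathione S-transferases, 2 of 14 probe sets tested were called higher and 1 lower at 2 weeks, and 3 higher and 0 lower at 8 weeks. Over all probe sets tested, 4.55% were called higher and 4.19% lower at 2 weeks, and 5.63% higher and 3.51% lower at 8 weeks. In the alpha, mu and theta classes 1 gene each was called at some time, and the other genes of the class were not. Gstp1, the pi-class enzyme that is scarce in normal adult rat liver and a marker of its preneoplastic foci, rose at both times. Its 2-week signals had a lowest, median and highest value of 1203.8, 1359.5 and 1480.2 on HSF, and of 830.2, 1037.6 and 1078.8 on the normal diet, without overlap. At 8 weeks they were 980.2, 1185.9 and 1389.4 on HSF, and 720.5, 923.4 and 1013 on the normal diet, where the lowest HSF kidney fell within the range of the normal diet. The change was 0.42 ± 0.08 at 2 weeks (adjusted p = 0.00216) and 0.38 ± 0.08 at 8 weeks (adjusted p = 0.00457).

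Gsta3, an alpha-class enzyme whose class conjugates products of lipid peroxidation and isomerises steroids, rose by a similar amount, at dim signals. At 2 weeks its lowest, median and highest signals were 75.4, 95.9 and 107.9 on HSF, and 53.6, 66.4 and 77.1 on the normal diet. At 8 weeks they were 59.5, 74.7 and 90.6 on HSF, and 42.8, 50.9 and 72.2 on the normal diet. A single HSF kidney lay within the normal-diet range at 2 weeks, and 2 did at 8 weeks. The change was 0.47 ± 0.12 (adjusted p = 0.0128) at 2 weeks and 0.45 ± 0.12 (adjusted p = 0.0165) at 8 weeks. The 8-week call was lost without HSF kidney 1 (0.39, adjusted p = 0.0562) and without normal-diet arrays 1 and 2 (0.43, adjusted p = 0.0578). It was also lost with the spike-in level as a covariate (0.44, adjusted p = 0.0652) and when only the groups compared were fitted (0.45, adjusted p = 0.0573). The 2-week call was lost with the GAPDH 3' to 5' ratio, the spike-in level, the fat index or the Alb signal as a covariate (0.36 to 0.48, adjusted p = 0.0556 to 0.259). The other alpha-class genes did not pass the threshold. Gsta1 was at -0.19 ± 0.09 at both times (adjusted p = 0.214 and 0.197), and Gsta4, which conjugates 4-hydroxynonenal, was at -0.13 ± 0.07 at both times (adjusted p = 0.327 and 0.323).

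Gstm1, a mu-class enzyme, was called at 8 weeks only. Its 8-week signals were 102.2, 113.5, 119.5, 75, 104.8 and 163.9 on HSF, against 43.1, 18.6, 70.1, 106.1, 65.9 and 80.8 on the normal diet. The lowest values were those of normal-diet kidneys 1 and 2, the arrays that stood apart at the dim end. The change was 0.86 ± 0.24 (adjusted p = 0.0224), but 0.44 without both arrays (adjusted p = 0.175). Leaving out array 1 alone gave 0.79 (adjusted p = 0.0571), and array 2 alone 0.60 (adjusted p = 0.0518). The call was also lost with the spike-in level as a covariate (0.66, adjusted p = 0.165) and when only the groups compared were fitted (adjusted p = 0.0656). At 2 weeks Gstm1 was at -0.04 ± 0.24 (adjusted p = 0.938). The difference between the times, 0.90 ± 0.34 with all arrays, had an adjusted p of 0.280. Gstm2, of the same class, was at 0.33 ± 0.12 at 2 weeks (adjusted p = 0.0923) and -0.05 ± 0.12 at 8 weeks (adjusted p = 0.849).

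Gstt3, a theta-class enzyme, fell at 2 weeks by 0.34 ± 0.06 on the log2 scale (adjusted p = 0.000707), the smallest adjusted p of the 34 in any comparison. Its lowest, median and highest signals were 2066.3, 2165.5 and 2412.5 on HSF, and 2634.3, 2765.5 and 2904.5 on the normal diet, without overlap. At 8 weeks they were 2075, 2342.9 and 2504.4 on HSF, and 2326.7, 2460.0 and 2940 on the normal diet, with wide overlap. The change there was -0.13 ± 0.06 (adjusted p = 0.177), and the difference between the times, 0.21 ± 0.09, did not pass the threshold either (adjusted p = 0.336). With quantile normalization Gstt3 was called lower at 8 weeks as well (-0.16, adjusted p = 0.0314). Gstt1, another theta-class gene, which acts on small halogenated compounds, was at -0.08 ± 0.09 and -0.11 ± 0.09 at 2 and 8 weeks (adjusted p = 0.646 and 0.531).

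The remaining classes hold 1 gene each here. Gstz1, which isomerises maleylacetoacetate in tyrosine breakdown, was at -0.27 ± 0.11 at 2 weeks (adjusted p = 0.139) and -0.30 ± 0.11 at 8 weeks (adjusted p = 0.0946). Gsto1, which reduces dehydroascorbate, was at -0.16 ± 0.08 at 2 weeks (adjusted p = 0.237) and -0.01 ± 0.08 at 8 weeks (adjusted p = 0.948).

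Of 6 sulfotransferase and 2 glucuronosyltransferase probe sets tested, 3 were called at 2 weeks and 0 at 8 weeks. Over all probe sets tested, 8.74% and 9.14% were called at these times. The time at which these genes were called was not the same in every setting. Sult1c2a, a sulfotransferase of the group that acts on phenols and hydroxylated arylamines, had lowest, median and highest signals of 3272.5, 3817.2 and 4872.6 on HSF at 2 weeks, and 4521.7, 4820.6 and 4951.5 on the normal diet. A single HSF kidney reached into the normal-diet range, and the change was -0.29 ± 0.09 (adjusted p = 0.0413). Of 15 other settings, 8 lost the call. Among them, quantile normalization moved the change to -0.09 (adjusted p = 0.352), and the spike-in level as a covariate to -0.08 (adjusted p = 0.670). The call was also lost in 10 of the 24 fits that left out 1 kidney, HSF kidneys 1, 2, 3 and 5 and each normal-diet kidney (adjusted p = 0.0520 to 0.113). At 8 weeks it was at -0.17 ± 0.09 (adjusted p = 0.245), but the same 2 settings called it there, at -0.18 with quantile normalization (adjusted p = 0.0297) and -0.33 with the spike-in level (adjusted p = 0.0113). Sult1b1, which sulfates phenols and thyroid hormones, was at -0.02 ± 0.06 and -0.14 ± 0.06 at 2 and 8 weeks (adjusted p = 0.872 and 0.169).

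Ugt2b35, of the glucuronosyltransferase family that handles steroids, bile acids and drugs, had lowest, median and highest signals of 1162.5, 1393.1 and 1607.9 on HSF at 2 weeks, and 1585.9, 1695.3 and 1804.4 on the normal diet. A single HSF kidney lay above the lowest normal-diet kidney. The change was -0.32 ± 0.10 (adjusted p = 0.0436) at 2 weeks and -0.28 ± 0.10 (adjusted p = 0.0716) at 8 weeks. The call at 2 weeks was lost in 9 of the 24 fits that left out 1 kidney, HSF kidneys 2, 3 and 6 and each normal-diet kidney (adjusted p = 0.0530 to 0.117). It was also lost in 8 of 15 other settings (adjusted p up to 0.444). These were quantile normalization, median centring, no filter, eBayes without trend and a replicate block. The others were the GAPDH ratio, fat index or Alb signal as a covariate. Ugt2b35 was called at 8 weeks without normal-diet kidney 4 (-0.39, adjusted p = 0.00193).

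Ugt8, which adds galactose to ceramide in the synthesis of myelin and kidney glycolipids and is related to the drug-conjugating enzymes by sequence, was called higher at 2 weeks. Its signals were 68.4, 34.5, 77.8, 81.5, 91.4 and 65.3 on HSF, against 23.6, 50.6, 35.9, 41.9, 59.7 and 34.2 on the normal diet. High salt and fat kidney 2 lay among the normal-diet kidneys, and the other 5 lay above them all. The change was 0.67 ± 0.20 (adjusted p = 0.0368), and the call was lost without HSF kidney 1, 3, 4 or 5 or normal-diet kidney 1, 3, 4 or 6 (adjusted p = 0.0525 to 0.101). It was also lost in 7 of 14 other settings, among them the spike-in level as a covariate (0.53, adjusted p = 0.240). At 8 weeks it was 0.12 ± 0.20 (adjusted p = 0.774), with an adjusted p of 0.469 for the difference between the times. A second Ugt8 probe set, with a mean signal of 1.53, was too dim to be tested.

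**Figure D3:**
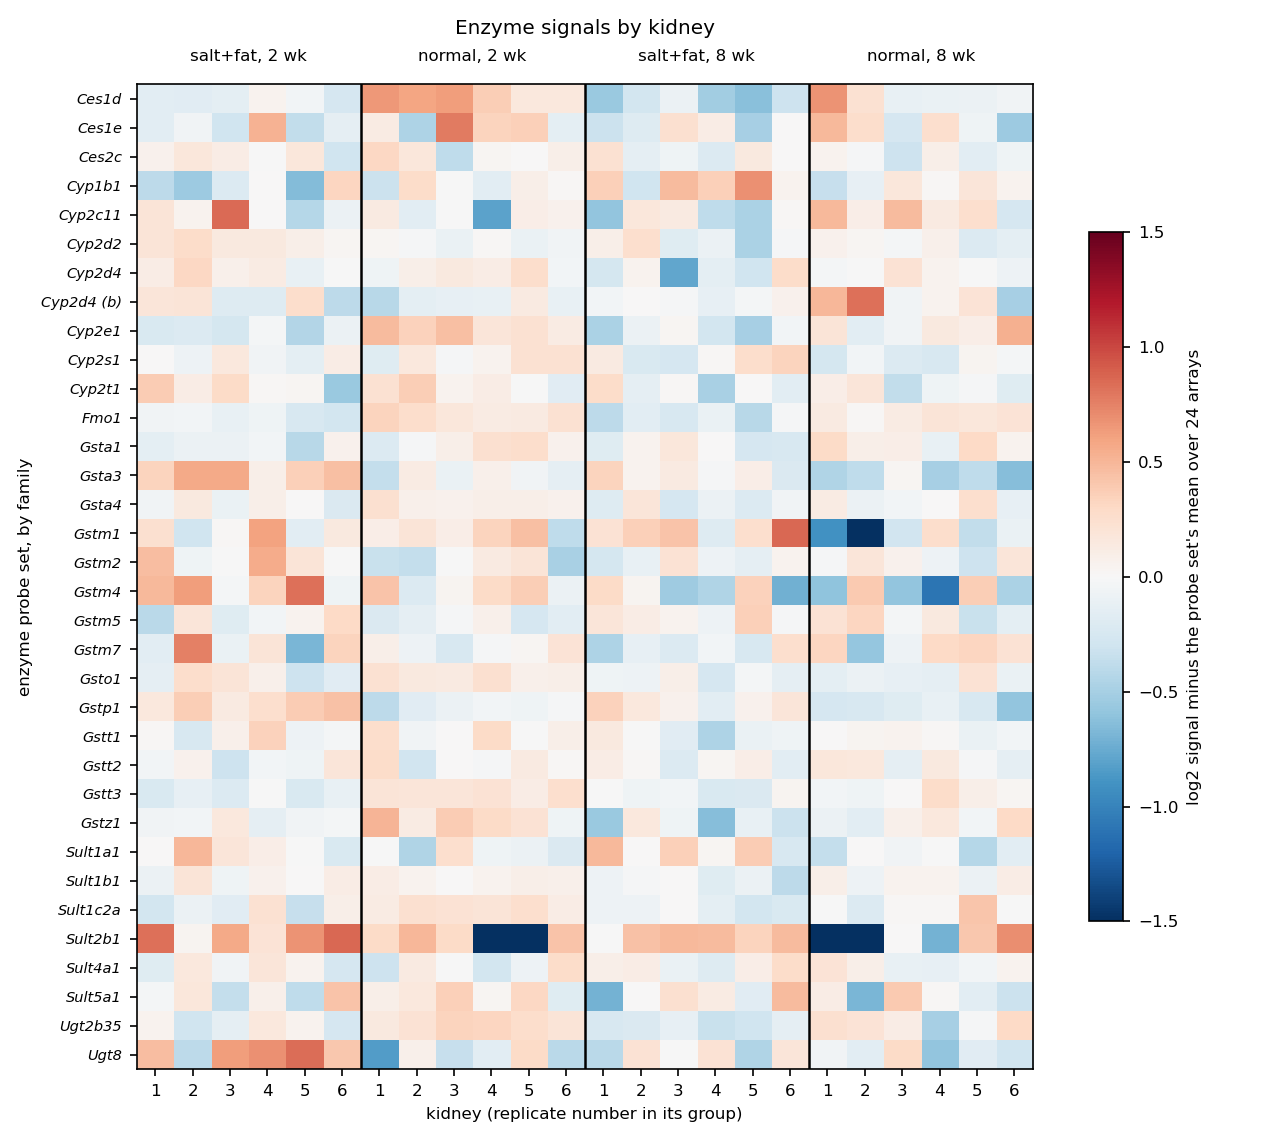
Heat map of the log2(signal + 7.21) of each of the 34 enzyme probe sets tested, minus its mean over 24 arrays, with kidneys in columns by group and probe sets in rows by family. Fmo1 is below its mean in every HSF column and above it in every normal-diet column, and the darkest cells are low Sult2b1 and Gstm1 signals in single normal-diet kidneys.

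The members differed in how evenly they were expressed within a group. Sult2b1, which sulfates cholesterol, had a pooled within-group SD of 0.82 on the log2 scale, above 99.8% of all probe sets tested, where the median was 0.20. Its signals were 126.6, 70.5, 104.6, 79.6, 112.9 and 129.4 on HSF at 2 weeks, against 84.5, 99.1, 84.3, 16.7, 10.4 and 93.7 on the normal diet. At 8 weeks they were 67.8, 95, 98.3, 97, 87.8 and 97.8 on HSF, against 15.5, 14.6, 68.2, 38.7, 92.7 and 114.9 on the normal diet. On this tested probe set the low signals were all in normal-diet kidneys, 2 of them on the arrays that stood apart at the dim end. A second Sult2b1 probe set, with a mean signal of 21.3, was too dim to be tested. Its lowest signal, 3.7, was in normal-diet kidney 1 and HSF kidney 4 at 8 weeks. At 2 weeks normal-diet kidneys 4 and 5 had 21.6 and 13.9 on it, above kidneys 3 and 6 (6.5 and 11.9). The changes of the tested probe set, 0.91 ± 0.41 and 0.89 ± 0.41, had adjusted p of 0.179 and 0.182. Its 8-week change was 0.27 without normal-diet arrays 1 and 2 (adjusted p = 0.765). Sult2b1 was singled out after its values were seen. Gstt3 was at the other end, with a pooled SD of 0.096.

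No member was called in the interaction of diet and time, against 0.382% of all probe sets tested, and 5 had an unadjusted p under 0.05 (11.6% of all). Between 8 and 2 weeks on HSF 0 of 34 were called, against 3.53% of all, and 10 had an unadjusted p under 0.05 (17% of all), of which 9 were lower at 8 weeks (7.98% of all). Cyp1b1 had the smallest adjusted p there, at a change of 0.52 ± 0.17 (adjusted p = 0.0896). Its mean signals were 61.2 at 8 weeks and 40.8 at 2 weeks, near the filter threshold, which it exceeded in 13 of the arrays. On the normal diet 0 of 34 were called, against 0.0392% of all. There 5 had an unadjusted p under 0.05 (8.51% of all), each lower at 8 weeks (3.74% of all). Gstm1 was among the 5, at -0.68 ± 0.24. Its 8-week signals were 43.1 and 18.6 on normal-diet arrays 1 and 2, which stood apart at the dim end. The medians of the members were -0.08 on HSF and -0.10 on the normal diet, against 0.00 and 0.01 over all probe sets tested. Age and time on a diet cannot be told apart here.

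Promoter windows are shown for the 5 genes called at both times, Gstp1 and Gsta3 higher and Cyp2e1, Ces1d and Fmo1 lower. RefSeq windows on the rat assembly GRCr8, from 250 bases before to 50 after the start, were found for 59 of the 67 genes (60 windows). Each was searched on both strands for TGACNNNGC, the core of the antioxidant response element bound by Nrf2, and for GCGTG, the core bound by the aryl hydrocarbon receptor. Matches are in capitals, and positions count from the start base as 0.
Gstp1 (chr1:210769656-210769955, minus strand): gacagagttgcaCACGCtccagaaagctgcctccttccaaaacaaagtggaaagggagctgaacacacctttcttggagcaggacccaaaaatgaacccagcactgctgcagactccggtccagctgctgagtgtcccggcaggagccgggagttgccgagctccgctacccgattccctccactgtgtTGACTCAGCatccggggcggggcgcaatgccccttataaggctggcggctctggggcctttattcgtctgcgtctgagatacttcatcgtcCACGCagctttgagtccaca
Gsta3, first start (chr9:31154739-31155038, plus strand): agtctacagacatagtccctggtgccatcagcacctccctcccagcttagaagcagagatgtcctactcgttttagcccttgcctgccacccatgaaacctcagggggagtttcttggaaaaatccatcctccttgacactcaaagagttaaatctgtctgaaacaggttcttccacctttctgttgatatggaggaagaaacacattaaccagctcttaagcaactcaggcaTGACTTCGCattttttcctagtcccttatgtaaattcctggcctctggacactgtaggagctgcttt
Gsta3, second start (chr9:31166793-31167092, plus strand): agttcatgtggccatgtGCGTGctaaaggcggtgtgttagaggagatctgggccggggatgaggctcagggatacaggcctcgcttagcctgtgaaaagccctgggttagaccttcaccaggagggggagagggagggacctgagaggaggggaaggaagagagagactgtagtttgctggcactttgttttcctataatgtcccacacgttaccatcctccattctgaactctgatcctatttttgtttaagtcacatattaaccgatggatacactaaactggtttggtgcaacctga
Cyp2e1 (chr1:205269717-205270016, plus strand): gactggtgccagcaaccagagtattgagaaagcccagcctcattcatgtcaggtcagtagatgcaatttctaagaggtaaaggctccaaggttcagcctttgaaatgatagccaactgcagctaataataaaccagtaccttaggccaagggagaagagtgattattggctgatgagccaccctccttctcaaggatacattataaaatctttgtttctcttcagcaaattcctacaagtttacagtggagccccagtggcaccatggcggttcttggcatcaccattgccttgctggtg
Ces1d (chr19:30046244-30046543, plus strand): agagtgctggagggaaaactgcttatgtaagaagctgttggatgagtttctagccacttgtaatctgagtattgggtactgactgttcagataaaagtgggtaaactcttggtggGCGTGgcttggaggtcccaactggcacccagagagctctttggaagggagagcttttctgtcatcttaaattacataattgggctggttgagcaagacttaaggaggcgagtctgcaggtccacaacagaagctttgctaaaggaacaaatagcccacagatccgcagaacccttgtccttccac
Fmo1 (chr13:77747617-77747916, minus strand): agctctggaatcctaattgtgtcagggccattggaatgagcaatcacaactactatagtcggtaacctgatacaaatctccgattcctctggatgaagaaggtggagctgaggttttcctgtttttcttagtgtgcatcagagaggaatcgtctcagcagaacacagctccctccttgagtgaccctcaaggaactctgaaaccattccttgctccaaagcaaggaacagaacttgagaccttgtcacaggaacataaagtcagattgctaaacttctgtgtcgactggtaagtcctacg

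The Gstp1 window held TGACTCAGC at -61 and GCGTG on the reverse strand, read as CACGC, at 2 places. The first Gsta3 window held TGACTTCGC at -17, and the second held GCGTG at -233. The Ces1d window held GCGTG at -135, and the Cyp2e1 and Fmo1 windows held neither motif. TGACNNNGC was found in 7 of the 60 member windows (11.7%) and 2 of the 11 windows of called members, against 12.1% of 33469 windows. GCGTG was found in 10 of 60 (16.7%) and 4 of 11, against 29.7% of all windows. The other windows with TGACNNNGC were those of Cyp2s1, Gsta1, Gstm5, Gstm7 and Gstz1, which were not called. A match in a window of this length is a description of its letters.

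Other genes of the pathway were followed in 6 lists. Beside the counts of these and of the marker lists below stand the shares of all probe sets tested. These were 4.55% higher and 4.19% lower at 2 weeks, and 5.63% higher and 3.51% lower at 8 weeks. Of 17 other phase I enzymes tested, 0 were higher and 6 lower at 2 weeks (Aldh1a1, Xdh, Maob, Akr1a1, Ephx1 and Nqo2), and 1 higher and 5 lower at 8 weeks (Pon2 higher; Aldh1a1, Aldh2, Maob, Nqo2 and Dpyd lower). Aldh1a1, which oxidises retinal and other aldehydes, fell by 0.31 ± 0.07 at 2 weeks (adjusted p = 0.00449) and by 0.26 ± 0.07 at 8 weeks (adjusted p = 0.0172). Ephx1, the microsomal epoxide hydrolase, fell at 2 weeks by 0.30 ± 0.08 (adjusted p = 0.0167). Of 11 other phase II enzymes, 0 were called at 2 weeks and 2 fell at 8 weeks, the microsomal glutathione transferase Mgst3 and the dipeptidase Dpep1. Median changes of both lists lay between -0.16 and -0.06.

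Of 13 regulators tested, 1 was higher and 2 were lower at 2 weeks, and 0 were called at 8 weeks. Hnf4a, a nuclear receptor of hepatocytes and proximal tubule that activates many of these enzymes in liver, averaged 396 ± 98.9 on HSF and 651 ± 60.8 on the normal diet at 2 weeks (SD, n = 6 each). Its change was -0.74 ± 0.13 at 2 weeks (adjusted p = 0.000558) and -0.22 ± 0.13 at 8 weeks (adjusted p = 0.311). Rxra, the partner of several xenobiotic receptors, was also lower at 2 weeks (-0.74 ± 0.18, adjusted p = 0.00913), and Esrra was higher (0.36 ± 0.10, adjusted p = 0.0279). Nfe2l2, which encodes Nrf2, was at -0.02 ± 0.09 and 0.08 ± 0.09 at 2 and 8 weeks, and its classical target Nqo1 was at 0.21 ± 0.15 and -0.01 ± 0.15, none of them called.

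Of the 4 electron transfer proteins, among them the P450 reductase Por, 0 were called at either time. Of 12 cofactor genes, which supply glutathione, UDP-glucuronic acid, sulfate donors and NADPH, 0 were called at 2 weeks and 1 at 8 weeks, Pgd of the pentose phosphate pathway, at 0.26 ± 0.07 (adjusted p = 0.0147). Of 6 drug transporters, 1 was higher and 1 lower at 2 weeks, and 0 higher and 2 lower at 8 weeks. Slc22a8, the organic anion transporter OAT3, fell at both times, by 0.40 ± 0.08 (adjusted p = 0.00282) and 0.38 ± 0.08 (adjusted p = 0.00424). Slc22a6, the organic anion transporter OAT1, fell at 8 weeks by 0.41 ± 0.08 (adjusted p = 0.000882), and the cation transporter Slc22a2 rose at 2 weeks (0.34 ± 0.10, adjusted p = 0.0302).

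**Figure D4:**
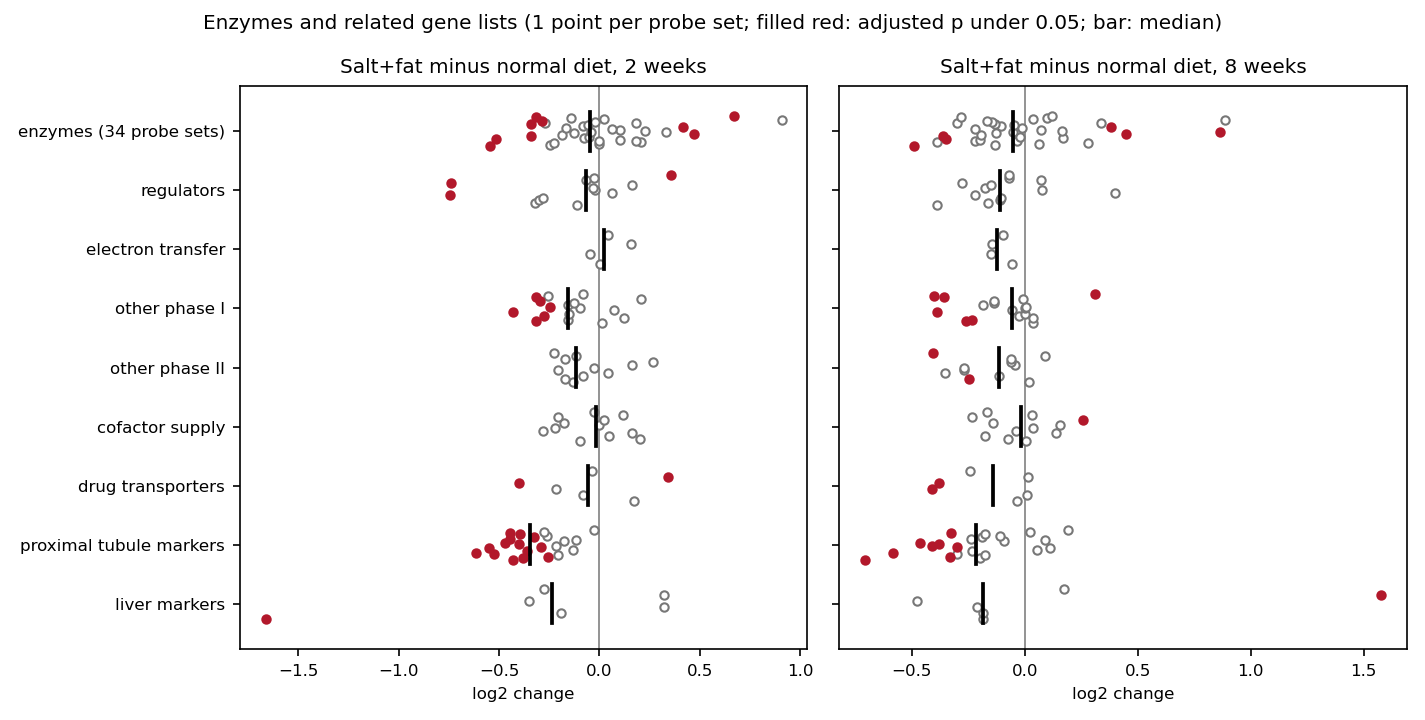
Change in log2(signal + 7.21), HSF minus normal diet, of the enzymes, 6 lists of related genes and the proximal tubule and liver markers at 2 weeks (left) and 8 weeks (right), with 1 point per probe set, filled red for adjusted p under 0.05, and a bar at each median. The enzymes spread to both sides of 0 around a median of -0.05, while the proximal tubule markers lie mostly left of 0, with medians of -0.34 and -0.22.

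Markers of several kidney cell types differed between the diets as well. Of 22 proximal tubule markers tested, 0 were higher and 14 lower at 2 weeks, and 0 higher and 8 lower at 8 weeks. Their summed signals ran from 46602 to 61103 on HSF and from 63838 to 69014 on the normal diet at 2 weeks, and from 49409 to 57162 on HSF and 52767 to 69597 on the normal diet at 8 weeks. The proximal tubule list shares Slc22a6 and Slc22a8 with the drug transporters and Ggt1 with the other phase II enzymes, so these lists are not separate. Markers of other tubule segments were mostly higher where called. Of 7 thick ascending limb markers, 4 were higher at 2 weeks and 2 at 8 weeks, and of 8 collecting duct markers, 6 were higher and 1 lower at 2 weeks and 4 higher at 8 weeks. Of 8 markers of tubular injury, 4 were higher at 2 weeks and all 8 at 8 weeks, with summed signals of 4407 to 5512 on HSF and 2638 to 3347 on the normal diet at 2 weeks, and 6834 to 15087 on HSF and 2823 to 4062 on the normal diet at 8 weeks. Of 6 fibroblast and matrix markers, 1 was higher at 2 weeks and 5 at 8 weeks, and of 8 macrophage and leukocyte markers, 0 were called at 2 weeks and 3 were higher at 8 weeks. Fmo1, Cyp2e1 and Ces1d had the direction of the proximal tubule markers called, and Gsta3 and Gstp1 that of most markers called in these other kidney lists. The part of any of these lists in the enzymes' changes was not tested.

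Fat cell markers differed at 2 weeks, and of the liver markers 1 was called at each time. All 4 fat cell markers tested of 6 on the array were lower at 2 weeks and 0 were called at 8 weeks. The list's summed signals ran from 149.6 to 328.1 on HSF and from 356.4 to 3955.4 on the normal diet at 2 weeks, and from 409.4 to 769 on HSF and 138.7 to 3489.9 on the normal diet at 8 weeks. Leptin stayed at or below 15.4 in every kidney, while Car3 reached 2232.4 and Fabp4 1236 on the normal diet at 2 weeks. Of 12 liver markers on the array 6 were tested. Alb was lower at 2 weeks (-1.66 ± 0.41, adjusted p = 0.0116) and Fga, a fibrinogen chain, was higher at 8 weeks (1.58 ± 0.26, adjusted p = 0.000231). Signals within the list differed widely. Apoc3 ran from 179.6 to 300.5 over all kidneys and Alb from 4 to 162.3, while Apoa1 did not exceed 9.2. The liver P450 Cyp3a2, an enzyme outside this list, did not exceed 3.3. Summed liver markers ran from 451.6 to 622.6 on HSF and from 607.3 to 673.6 on the normal diet at 2 weeks, and from 611.7 to 819.1 on HSF and 585.3 to 761.3 on the normal diet at 8 weeks. None of 6 adrenal markers passed the filter. RNA measures also differed at 2 weeks: the GAPDH 3' to 5' signal ratio was 1.22 ± 0.09 on HSF and 1.09 ± 0.07 on the normal diet (SD, n = 6 each), while at 8 weeks it was 1.16 on both. With the fat index, the Alb signal or the GAPDH ratio as a covariate, 2, 1 and 5 members were called at 2 weeks in place of 9. Over all probe sets tested 2.27%, 1.34% and 3.21% were called under these covariates, in place of 8.74%.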

How the data were processed

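Kidney RNA of 24 rats was measured on 24 arrays, 1 per animal, in 4 groups of 6. The values that the authors deposited are intensities of 15923 probe sets, made with MAS5, per the submitters' processing notes. The MAS5 version, scaling target and detection calls are not given in the sources used here. The deposited intensities are linear, with a mean of 150.03 to 150.04 on every array after trimming of the lowest and highest values, so they had been scaled to a common level. Nothing says whether kidneys of a group shared a litter or cage, and the number of arrays limits the precision.

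The 57 control probe sets were left out. Symbols came from the platform annotation, and a RefSeq gene table (GRCr8) changed 0 of them and lacked 1 member probe set. The pseudocount of 7.21 in log2(signal + 7.21) is 0.1 times the median over arrays of their median signal. The filter kept probe sets that exceeded the 40th percentile (44.5 to 54.5) in 6 or more arrays. Group means were fitted to all arrays in limma 3.58.1 (R 4.3.3) with eBayes and an intensity trend, and p-values were adjusted by Benjamini-Hochberg over 10208 probe sets, two-sided, in each of 5 comparisons. The fit was tested on simulated data. Arrays of a group correlated at 0.958 to 0.981, and none was a duplicate. Sequences and starts came from RefSeq.

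The members, the gene lists and the settings were chosen with earlier results of these data known. Named genes are all called members and, in each family, the 2 tested genes of highest mean signal. From the pathway lists, all genes called in a diet comparison were named, with values for only some of them, not always those of smallest p. Nfe2l2, Nqo1, Por, Cyp2c11 and Sult2b1 were named after their values were seen. Other settings were pseudocounts of 1 and 16, quantile normalization, median centring, no filter and a 60th percentile filter, eBayes without trend, weights per array, a replicate block, a fit of only the compared groups, leaving out each array, normal-diet arrays 1 and 2 at 8 weeks left out, and the GAPDH ratio, spike-in level, fat index or Alb signal as a covariate.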

Additional observations from a re-analysis of the deposited data

Results flagged for a closer look

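In 80 groups of 6 kidneys (20 named genes in 4 groups), 6 held a kidney whose gap to its nearest neighbour was large against the group's range by Dixon's test, and chance alone gives about 1 in 20. Ugt8 had a signal of 34.5 in HSF kidney 2 at 2 weeks, against 65.3 to 91.4 in the other 5. Gstz1, which acts in tyrosine breakdown, had 425.4 in HSF kidney 3 at 2 weeks, against 346.7 to 371.1. Gsta4 had 1948.9 in normal-diet kidney 1 at 2 weeks, against 1715.5 to 1748.4. Normal-diet kidney 5 at 8 weeks was high in 2 of them, with a Gsto1 signal of 1404.8 against 1084.8 to 1132 and a Sult1c2a signal of 5579.5 against 3609 to 4223.7. Gstp1 had 720.5 in normal-diet kidney 6 at 8 weeks, against 917.7 to 1013, and was called at 8 weeks without that kidney too.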

How the results depend on the processing

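At 2 weeks 9 members were called, 6 to 9 when 1 array was left out, 5 with the GAPDH ratio as a covariate (Cyp2e1, Fmo1, Gstt3, Sult1c2a and Gstp1), 2 with the fat index (Gstt3 and Gstp1) and 1 with Alb (Gstt3). At 8 weeks 6 were called, 4 to 7 when 1 array was left out, 3 when only the groups compared were fitted (Ces1d, Fmo1 and Gstp1) and 3 without normal-diet arrays 1 and 2 (Cyp2e1, Fmo1 and Gstp1). For 8 against 2 weeks on HSF 0 were called, but 3 with array weights (Cyp1b1 higher, Cyp2d2 and Cyp2d4 lower), 1 with the fat index (Ces1d lower), 2 with Alb (Ces1d lower and Cyp1b1 higher), and 0 to 2 when 1 array was left out. Calls appeared there without HSF kidney 6 at 2 weeks (Cyp1b1), kidney 2 at 8 weeks (Cyp1b1 and Cyp2d2) or kidney 6 at 8 weeks (Cyp2d4). The Cyp2d4 calls were for its brighter probe set, at -0.28 ± 0.11 with all arrays and no weights. Its dimmer probe set was at -0.00 ± 0.16. The interaction and time on the normal diet gave 0 in every setting run; fitting only the groups compared was not run for the interaction, which needs all 4. Over all probe sets tested, 6.31% were called at 8 weeks when only the groups compared were fitted and 5.30% without normal-diet arrays 1 and 2, against 9.14%. The cause of these shifts was not tested.

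The 15 calls on single genes kept their direction in all 222 values under other settings, where 44 lost the call, and in all 360 with 1 array left out, where 36 lost it. Gstt3 at 2 weeks, and Fmo1 and Gstp1 at 8 weeks, kept their call in every setting run, those that left out 1 array included. Other members, named after their values were seen, gained a call in single settings. At 2 weeks these were Gstm2 higher with array weights or without normal-diet kidney 5 (adjusted p = 0.0495 and 0.0464) and Cyp2b12 lower with no filter (0.0421). Cyp2b12 is near the floor, with a mean signal of 4.52 and 0 arrays above the filter threshold. At 8 weeks they were Gstz1 lower without HSF kidney 2 (0.0237) and Sult1a1 higher without HSF kidney 6 (0.0276). Gsta3 at 8 weeks lost its call without HSF kidney 1 (adjusted p = 0.0562). Replicate numbers are shared between the diets, but over 12 same-numbered pairs the correlation of deviations from group means was -0.07 to 0.10, with 1 over 0.1, and 1 of 12 kidneys correlated best with its own number. With the replicate block, 6 were called at 2 weeks, 6 at 8 weeks and 0 in the other comparisons.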
